A study of Rattus norvegicus with 32 samples.

Results

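The genes described here encode 10 proteins that hepatocytes secrete into plasma, namely Alb, Apoa1, Apoa2, Apob, Ttr, Serpina1, Tf, Fga, Fgb and Fgg. They were picked by symbol, each symbol matched 1 gene identifier, and together they are 10 of the 32623 genes in the count files. The libraries, however, were made from liver sinusoidal endothelial cells (LSECs), the fenestrated cells that line the hepatic capillaries. Poly(A) RNA of LSECs was sequenced in 32 libraries, of which 22 belong to a carbon tetrachloride (CCl4) experiment and 10 to a thioacetamide (TAA) experiment, both agents being hepatotoxins. All cells were obtained by liver perfusion, digestion and an iodixanol density gradient, without a sort for an endothelial surface marker in the protocol that the labels give. In the CCl4 experiment, LSECs came from Wistar Han rats that were untreated (healthy, n = 6) or had inhaled CCl4 for 2 weeks (acute, n = 5), 6 weeks (fibrosis, n = 5) or 12 to 14 weeks (cirrhosis, n = 6). According to the study's methods these rats were male, the drinking water in this model held phenobarbital, and cells were isolated some days after the last dose of toxicant. In the TAA experiment, the labels call 5 libraries "control" and 5 "TAA control rat", while the series text speaks of healthy Sprague-Dawley rats and TAA-cirrhotic rats and the labels give Wistar Han for all. Which of these groups received TAA was not settled, and both are named here by their labels. No group of the series is a preparation of hepatocytes, so there is no reference for the level of these genes in the cell type that makes the proteins.

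Hepatocytes make most plasma proteins and release them through the secretory pathway into the space of Disse, from where they pass the endothelial fenestrae into the blood. Transcription of these genes depends on a small network of liver-enriched factors, among them HNF4 and C/EBP proteins, and their mRNAs are among the most abundant of the liver. Albumin (Alb) is the main carrier and osmotic protein of plasma, apolipoproteins A-I and A-II (Apoa1, Apoa2) form high-density lipoprotein and apolipoprotein B (Apob) very-low-density lipoprotein. Transthyretin (Ttr) carries thyroid hormone and retinol-binding protein, alpha-1-antitrypsin (Serpina1) inhibits neutrophil elastase, transferrin (Tf) carries iron, and the chains encoded by Fga, Fgb and Fgg form fibrinogen. In bulk RNA, fewer cells of a type and less RNA per cell cannot be told apart.

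Of the 10 genes, 7 have an entry in the RefSeq promoter table (build GRCr8), and the first 250 bases of each entry were searched on both strands for forms of the TATA box. The sequence TATAAA (reverse complement TTTATA) was found for Fgg and Tf, and in 12.9% of all 33469 promoters in that table, and TATATA, its own reverse complement, for Fgb, and in 5.45% of all promoters. For Fgg only the first 96 of the bases searched lie before the RefSeq start of the gene. Those bases hold no match, so the match for Fgg ends past that start. The promoter of Fgb is shown as the member with the second form, at chr2:170700876-170701125 on the minus strand, 5' to 3' along the gene, with overlapping matches to TATATA in capitals.
Fgb: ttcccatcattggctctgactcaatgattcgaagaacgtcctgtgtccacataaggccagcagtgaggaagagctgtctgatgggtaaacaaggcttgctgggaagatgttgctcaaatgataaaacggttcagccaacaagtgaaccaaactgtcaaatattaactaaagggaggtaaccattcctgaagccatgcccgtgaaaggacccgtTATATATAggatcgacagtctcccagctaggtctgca
The fibrinogen genes Fga, Fgb and Fgg lie within 47.9 kb of each other on chromosome 2 of GRCr8. Apoa1, Apoa2 and Apob have no entry in the promoter table. These matches describe the letters in these windows, and no binding was measured. The reads themselves were mapped to another build, Rnor_6.0.

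All 10 mRNAs were detected in every library. The library totals ranged from 25646531 to 46464289 counts, and the lowest count of a member in any library was 14, for Apoa2 in an acute library and in a library labelled control. The members together held between 0.106% and 2.29% of all counts in healthy libraries, between 0.0167% and 0.111% in acute, between 0.153% and 0.616% in fibrosis and between 0.317% and 1.53% in cirrhosis. In the TAA experiment they held 0.237% to 0.614% in the group labelled control and 0.0644% to 0.149% in the group labelled TAA control, with no overlap between the groups. By expected count, not corrected for length, Alb stood first among all genes in healthy replicate 6 and cirrhosis replicate 1, and at rank 3079 in acute replicate 3. The LSEC identity of the libraries was checked with 19 measured endothelial markers, whose summed level was 28003 to 50224 CPM (counts scaled by library size and TMM factor) in healthy, 5520 to 6488 CPM in acute, 4290 to 5544 CPM in fibrosis and 23839 to 30919 CPM in cirrhosis libraries. No endothelial marker was at 0 in all libraries of any group, but the sums of the acute and fibrosis groups lay below those of every healthy and cirrhosis library. In the TAA experiment the same sum was 30394 to 40233 CPM in the group labelled control and 40309 to 52097 CPM in the group labelled TAA control.

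**Figure D1:**
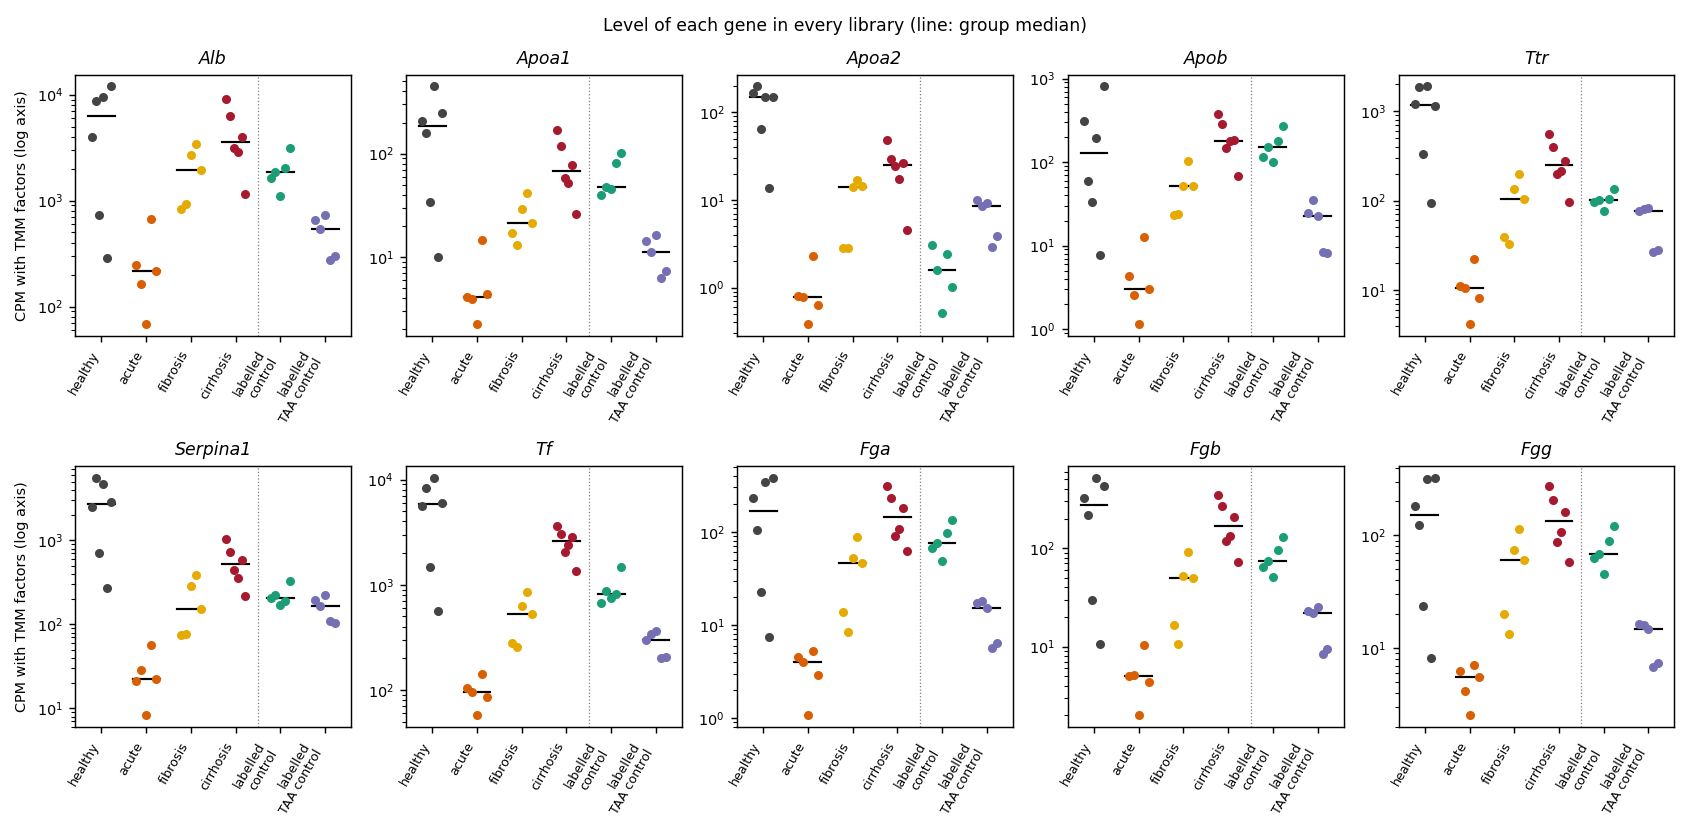
Level of each of the 10 genes in every library (points, CPM with TMM factors on a log axis, computed separately for the CCl4 and TAA experiments on either side of the dotted line), with the group median as a line. Within the CCl4 experiment the acute median is lowest for all 10 genes, and healthy libraries spread over the widest range, from 288 to 11962 CPM for Alb.

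Albumin showed how far apart libraries of 1 group could be. Its level in healthy LSECs had a lowest value of 288 CPM, a median of 6341 CPM and a highest value of 11962 CPM (n = 6). In acute LSECs the 5 libraries had 244, 162, 68.1, 673 and 216 CPM. In fibrosis the 5 libraries had 840, 926, 2718, 3423 and 1935 CPM. Thus 1 acute library, replicate 4, lay above the lowest healthy library, and all fibrosis libraries lay within the healthy range. In cirrhosis the lowest, median and highest values were 1160, 3555 and 9091 CPM (n = 6), again inside the healthy range. By mean log2 CPM the order was cirrhosis (11.84 ± 1.02, SD, n = 6), healthy (11.58 ± 2.23, SD, n = 6), fibrosis (10.73 ± 0.91, SD, n = 5) and acute (7.71 ± 1.18, SD, n = 5), and of the steps between neighbours in this order only that from fibrosis to acute was a DEG by the rule below (limma-voom log2 fold change 3.13).

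Apoa2, the second protein of high-density lipoprotein, was the member with the lowest counts and the largest fall. Healthy libraries had 13.5 CPM at the lowest, 150.4 CPM at the median and 198 CPM at the highest. The acute libraries had 0.812, 0.784, 0.382, 2.28 and 0.637 CPM. The fibrosis libraries had 2.82, 2.82, 14.1, 17.1 and 14.3 CPM. All acute libraries thus lay below all others of the CCl4 experiment, while 3 of the 5 fibrosis libraries reached above the lowest healthy one. In cirrhosis the lowest, median and highest values were 4.59, 25.3 and 48.3 CPM.

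Serpina1 and Ttr followed each other closely. Serpina1 had 275 CPM at the lowest, 2697 CPM at the median and 5579 CPM at the highest in healthy libraries, against 21.3, 28.5, 8.24, 56.3 and 22.4 CPM in the acute libraries. In fibrosis the 5 libraries had 75.0, 77.4, 287, 383 and 154 CPM, and in cirrhosis the range was 221 to 1051 CPM with a median of 517 CPM. Healthy replicates 3 and 5, at 717 and 275 CPM, reached down among the cirrhosis libraries, whereas the acute libraries lay below all healthy ones. Ttr went from a healthy median of 1175 CPM (range 93.6 to 1884 CPM) to 11.2, 10.4, 4.15, 22.3 and 8.09 CPM in the acute libraries. It stood at 38.7, 32.7, 136, 197 and 105 CPM in the fibrosis libraries and between 95.9 and 560 CPM in cirrhosis. The fibrosis libraries 15, 16 and 17 had more of both mRNAs than replicates 12 and 13 and this division held for all 10 members.

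Tf had the narrowest groups in acute and cirrhotic LSECs. Its healthy libraries ranged from 567 to 10416 CPM (median 5821 CPM), and its acute libraries had 105, 95.2, 57.3, 142 and 86.8 CPM. In fibrosis it had 277, 256, 627.5, 861 and 524 CPM, and in cirrhosis 1362 to 3598 CPM with a median of 2630 CPM. The fibrosis libraries therefore lay above all acute and below all cirrhosis libraries, an order without overlap that Tf showed for both steps of the CCl4 course.

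Apob, by contrast, was the member that was widest in healthy libraries, from 7.66 CPM to 807 CPM (median 128 CPM), a 105-fold range. The acute libraries had 4.28, 2.54, 1.15, 12.6 and 2.99 CPM, and the fibrosis libraries had 23.2, 24.3, 52.2, 104 and 51.4 CPM. Cirrhosis libraries had 68.6 to 377 CPM with a median of 180 CPM, the highest group median of the 4. Apoa1 ranged from 9.93 to 447 CPM in healthy, 2.24 to 14.6 CPM in acute, 12.99 to 41.3 CPM in fibrosis and 26.3 to 170.0 CPM in cirrhosis libraries. The fibrinogen chains had healthy medians of 167 (Fga), 271 (Fgb) and 152 CPM (Fgg) and acute medians of 4.001, 5.03 and 5.60 CPM. Their fibrosis medians were 45.8, 49.3 and 60.03 CPM, and their cirrhosis medians 143, 169 and 134 CPM.

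The spread among replicates of these genes was large in relation to that of other genes. Among 12914 genes with a mean of at least 1 CPM in healthy libraries, the SD of log2 CPM of the members lay at the 96.4th to 99.9th percentile, with a median SD of 2.10. Percentiles found in the same way were 87.2 to 99.0 in acute, 92.8 to 99.5 in fibrosis and 86.2 to 98.7 in cirrhosis libraries. They were 71.6 to 96.1 in the group labelled control and 88.8 to 98.2 in the group labelled TAA control. In healthy LSECs the highest library exceeded the lowest by 14.6-fold (Apoa2) to 105-fold (Apob), in acute by 2.47-fold to 10.95-fold, in fibrosis by 3.18-fold to 10.6-fold and in cirrhosis by 2.64-fold to 10.5-fold. The libraries at the ends were the same from gene to gene. Healthy replicate 5 was lowest for all 10 members, acute replicate 3 lowest and replicate 4 highest for all 10, and cirrhosis replicate 6 lowest and replicate 1 highest for all 10. In fibrosis, replicate 16 was highest for all 10 and replicate 13 lowest for 7. Over all 32 libraries, after the group means were subtracted, the Pearson correlation between pairs of members ranged from 0.77 (Apoa2 with Apob) to 0.99 (Fga with Fgg), which is given as a description of libraries that also share total depth and scaling.

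The first question of the design was how LSECs change with acute injury. A differentially expressed gene (DEG) passed the 0.05 threshold of limma-voom before adjustment and changed by more than 1.5-fold, and the adjusted p-values given beside it are those of limma-voom after Benjamini-Hochberg correction across the genes tested. After 2 weeks of CCl4, all 10 members were lower than in healthy LSECs, where 38.3% of the 14317 genes tested were lower and 35.8% higher. All 10 also passed with adjusted p-values (37.9% of all genes), and in 7 of 10 the groups did not overlap, which was true of 30.8% of all genes in this direction. The median log2 fold change was -4.77, against -0.09 over all genes. The largest falls were in Apoa2 (log2 fold change -6.76, standard error 1.03, adjusted p = 7.18e-05), Serpina1 (-6.27, standard error 0.760, adjusted p = 1.09e-05) and Ttr (-6.17, standard error 0.806, adjusted p = 2.05e-05), that is 108-fold, 77.4-fold and 71.9-fold lower. Tf was 38.4-fold lower. The smallest falls were in Alb (-3.84, standard error 0.945, adjusted p = 0.00254), Fgg (-4.13, adjusted p = 0.00388) and Apoa1 (-4.40, adjusted p = 0.00238). Alb, Apoa1 and Apob were the 3 members whose groups overlapped. Without healthy replicate 5 the log2 fold changes were -4.54 (Alb), -4.82 (Fgg), -5.08 (Apoa1), -5.46 (Apob), -5.52 (Fga), -5.47 (Fgb) and -6.77 (Ttr), each a fold more than 1.5 times as large as with it, and without healthy replicate 6 that of Apob was -4.01.

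After 6 weeks of CCl4, 5 of 10 members were lower than in healthy LSECs and 0 were higher, where 35.4% of 14538 genes tested were lower and 35.8% higher (34.9% lower with adjusted p-values). Apoa2 (log2 fold change -3.51, standard error 0.810, adjusted p = 0.00184), Serpina1 (-3.45, standard error 0.768, adjusted p = 0.00145), Ttr (-3.08, standard error 0.789, adjusted p = 0.00367), Tf (-2.92, standard error 0.700, adjusted p = 0.00241) and Apoa1 (-2.12, standard error 0.887, adjusted p = 0.0465) passed. The other 5 had log2 fold changes of -0.76 (Alb, 95% interval -2.79 to 1.27), -0.96 (Fgg), -1.05 (Apob), -1.49 (Fga) and -1.88 (Fgb), with intervals that included 0. The groups overlapped for all 10 members, whereas 29.4% of all genes were lower without overlap. The count depended on healthy replicate 5, without which 8 of 10 members were DEG, Apob, Fga and Fgb being added and the log2 fold changes of Apoa1 and Ttr being -2.80 and -3.68, and the call of Apoa1 was lost without any 1 of healthy replicates 1, 2, 4 and 6 or fibrosis replicates 12, 13 and 17. The count was also 8 with edgeR's quasi-likelihood test and 9 with DESeq2.

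In cirrhosis, 3 of 10 members were lower than in healthy LSECs and 0 were higher, where 25.7% of 14789 genes tested were lower and 28.8% higher, so that the share of members called was close to that of all genes. The 3 were Apoa2 (log2 fold change -2.23, standard error 0.675, adjusted p = 0.0131), Serpina1 (-1.90, standard error 0.666, adjusted p = 0.0262) and Ttr (-1.57, standard error 0.687, adjusted p = 0.0653), and the last of these did not pass with its adjusted p-value. That left 2 members, against 24.7% of all genes, and the groups overlapped for all 10 members, against 15.5% of all genes that were lower without overlap. The call of Ttr was lost without any 1 of healthy replicates 1, 2, 4 and 6 or cirrhosis replicates 3, 4, 5 and 6, and its log2 fold change was -2.17 without healthy replicate 5. Alb (log2 fold change 0.23, 95% interval -1.65 to 2.11), Apob (0.90, -1.07 to 2.87), Fga (0.62, -1.28 to 2.51), Fgb (0.32, -1.57 to 2.21) and Fgg (0.54, -1.24 to 2.32) had values above 0 that turned below 0 with edgeR and DESeq2, and none of them passed in any of these fits. These intervals allow differences of several fold in either direction. The comparisons of the 3 CCl4 groups with healthy LSECs share the same healthy libraries. Apoa2, Serpina1 and Ttr were the 3 largest falls in each.

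**Figure D2:**
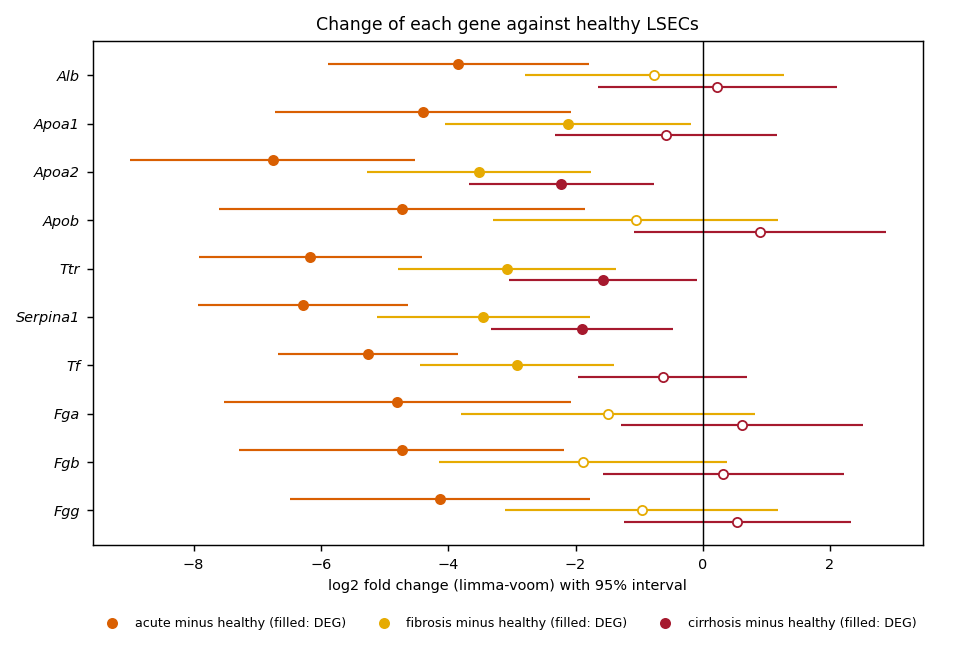
Log2 fold change of each gene against healthy LSECs (limma-voom, with 95% intervals) in acute, fibrosis and cirrhosis LSECs, with filled points for DEG. All 10 points are filled in acute, 5 in fibrosis and 3 in cirrhosis.

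Against acute LSECs, the members were higher at both later stages. In fibrosis all 10 were higher than in acute injury, where 14.3% of 13931 genes tested were higher (10.2% with adjusted p-values, which all 10 members also passed), and 9 of 10 did not overlap, against 6.09% of all genes. The log2 fold changes ranged from 2.32 (Apoa1, adjusted p = 0.0105) to 3.71 (Apob, adjusted p = 0.00867), with a median of 3.13 against 0.00 over all genes. In cirrhosis all 10 were higher than in acute injury and none overlapped, where 37.8% of 15005 genes were called higher, 37.5% with adjusted p-values, and 34.1% were higher without overlap. Here the range was 3.83 (Apoa1, adjusted p = 0.000119) to 5.64 (Apob, adjusted p = 4.55e-06). Between cirrhosis and fibrosis, 8 of 10 were higher, where 34.5% of 15186 genes were (34.3% with adjusted p-values). Tf rose most (log2 fold change 2.34, standard error 0.341, adjusted p = 4.78e-05) and was the 1 member without overlap (32.4% of all genes). Alb (1.04, adjusted p = 0.0787) and Apoa2 (1.34, adjusted p = 0.0944) did not pass. These comparisons share the acute, fibrosis or cirrhosis libraries with those above.

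In the TAA experiment, 8 of 10 members were lower and 1 was higher in the group labelled TAA control than in the group labelled control, where 15.9% of 14376 genes tested were lower and 13.5% were higher (14.9% and 12.7% with adjusted p-values, under which the members' counts were equal). In 7 of 10 the groups did not overlap, against 17.4% of all genes in this direction. Apob, the backbone of very-low-density lipoprotein, differed most (log2 fold change -3.14, standard error 0.415, adjusted p = 0.000195). Its 5 libraries labelled control had 114, 151, 100.4, 177 and 269 CPM, and the 5 labelled TAA control had 24.5, 35.6, 22.9, 8.44 and 8.19 CPM. Alb had 1623, 1865, 1103, 2037 and 3162 CPM against 654, 535, 727, 278 and 298 CPM, without overlap (log2 fold change -2.005, standard error 0.332, adjusted p = 0.000687). The fibrinogen chains differed by -2.81 (Fga), -2.27 (Fgb) and -2.64 (Fgg), Apoa1 by -2.47 and Tf by -1.68, with adjusted p-values of 0.000482 or less. Apoa2 went the other way. It had 3.08, 1.60, 0.508, 2.42 and 1.02 CPM in the libraries labelled control and 9.93, 8.63, 9.17, 2.93 and 3.84 CPM in those labelled TAA control (log2 fold change 2.13, standard error 0.534, adjusted p = 0.00708). The groups overlapped only in that the highest library labelled control, at 3.08 CPM, lay above the lowest labelled TAA control, at 2.93 CPM. Ttr was lower (-0.96, adjusted p = 0.0366) with overlapping groups. Serpina1 was not called (-0.52, standard error 0.238, adjusted p = 0.0880), with 169 to 331 CPM against 105 to 224 CPM. Within the TAA control label, replicates 14 and 15 were the lowest pair for every member, and their counts were closer to each other (chi-square per degree of freedom 2.96) than those of any other pair within a group (23.6 or more). Counting their mean as 1 library left 9 members called.

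Because a member's ratio to Alb in the same library does not depend on library scaling, the composition of the secretory transcripts could be compared between groups. These ratios are counts of 1 gene over counts of another and are read only across libraries, as a description without a test. The share of all genes whose ratio to Alb separates the same groups was not computed. Whether a lack of overlap is particular to the members was therefore not tested. Serpina1 stood at 24.3% to 97.7% of Alb in healthy libraries (median 63.4%), and at 8.36% to 17.6% in acute, 7.95% to 11.2% in fibrosis and 11.6% to 19.0% in cirrhosis libraries. The CCl4 groups thus all lay below the healthy group without overlap, also at the stage where the level of Alb itself had a value near that of healthy cells. Ttr behaved alike, with 9.61% to 45.7% of Alb in healthy and at most 6.43%, 5.74% and 8.27% in acute, fibrosis and cirrhosis libraries. Apoa2 had 1.27% to 8.92% in healthy and at most 0.561%, 0.740% and 0.769% in the CCl4 groups. Tf was below the healthy range only in fibrosis, with 23.1% to 33.0% against 50.5% to 203%.

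The ratio of Apob to Alb differed between all stages of the CCl4 course. This ratio to Alb was 1.39% to 1.87% in acute, 1.92% to 3.04% in fibrosis and 4.15% to 6.11% in cirrhosis libraries, 3 ranges without overlap, while healthy libraries spanned them all (0.682% to 7.97%). The ratios of Ttr, Serpina1, Tf, Fga and Fgb to Alb were also higher in cirrhosis than in fibrosis without overlap, by 0.52, 0.56, 1.30, 1.11 and 1.21 in mean log2 ratio against 0.96 for Apob, and those of Fga and Fgb were higher than in acute libraries as well. Between fibrosis and acute, Apob was the 1 of 9 ratios without overlap. In the TAA experiment the direction was opposite between genes. Relative to Alb, Serpina1 (29.6% to 39.2% against 9.39% to 15.3%), Ttr (9.28% to 14.9% against 4.30% to 6.92%) and Apoa2 (1.05% to 1.61% against 0.0324% to 0.190%) were higher in the group labelled TAA control, without overlap. Apob (2.75% to 6.64% against 7.05% to 9.10%), Fga and Fgg were lower without overlap. The 3 genes whose share of Alb was lower without overlap in every CCl4 group than in healthy LSECs were therefore the 3 that were higher without overlap in the group labelled TAA control. By mean log2 ratio, Apoa1 (-0.58, -1.35 and -0.80) and Tf (-1.42, -2.15 and -0.85) were also lower in acute, fibrosis and cirrhosis. In the TAA comparison Apoa1 was lower (-0.50) and Tf higher (0.32), both with overlap.

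**Figure D3:**
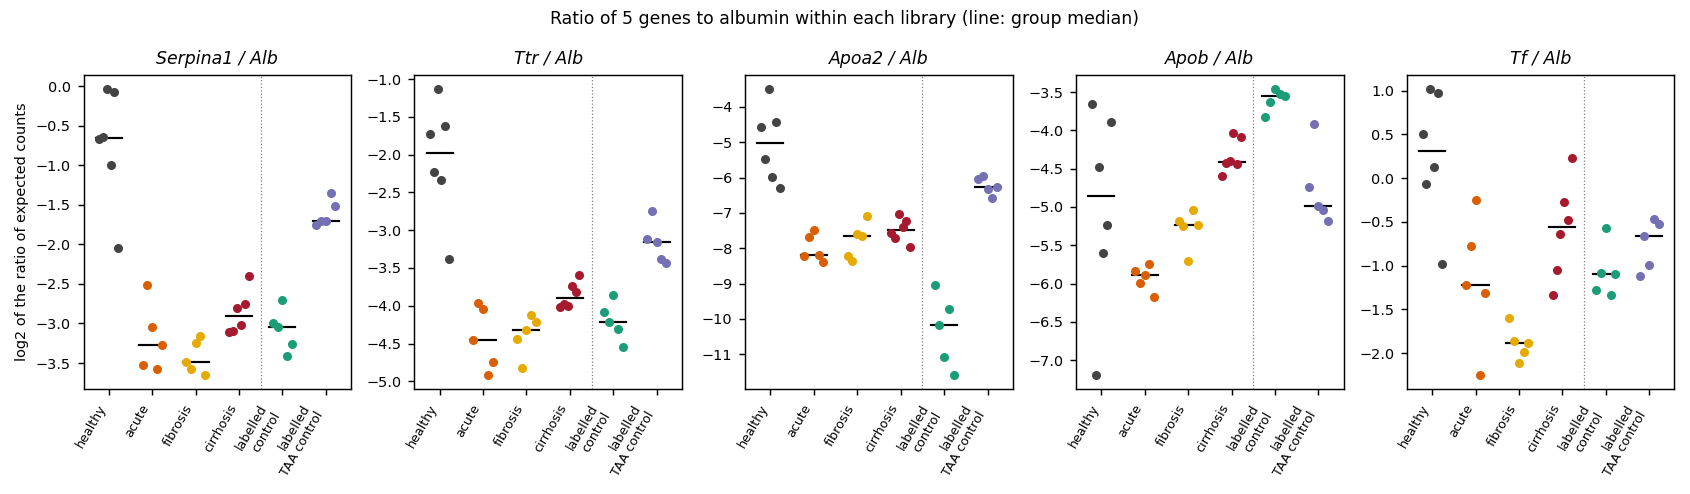
Log2 ratio of Serpina1, Ttr, Apoa2, Apob and Tf to Alb in every library (points), by group, with the group median as a line. For Serpina1, Ttr and Apoa2 every healthy library lies above all acute, fibrosis and cirrhosis libraries, and Apob rises from acute to fibrosis to cirrhosis without overlap.

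Other products of hepatocytes were examined with lists of textbook genes, whose counts stand beside the shares of all genes called, namely 38.3% lower and 35.8% higher in acute, 35.4% and 35.8% in fibrosis, 25.7% and 28.8% in cirrhosis, and 15.9% and 13.5% in the TAA comparison. Of the other plasma proteins, 59 of 59 tested were lower in acute LSECs (median log2 fold change -4.85), 24 of 59 were lower in fibrosis (-1.77), and 9 of 60 were lower and 3 higher in cirrhosis (-0.59), all against healthy cells, so that the share called lower was close to that of all genes in fibrosis and below it in cirrhosis. In the group labelled TAA control, 45 of 59 were lower and 6 higher (-1.29). The medians thus lay near those of the 10 members in acute (-4.77) and fibrosis (-1.999). Apoe, a lipoprotein component that macrophages also make, was lower by limma-voom at every CCl4 stage (log2 fold change -5.21, -3.42 and -1.98, Benjamini-Hochberg adjusted p = 4.71e-09, 8.44e-07 and 9.15e-05), without overlap. Apoc4, a small apolipoprotein, was lower in the same order (-7.18, -4.23 and -2.24). Serpina7, the thyroxine-binding globulin, was higher in cirrhosis (3.16, adjusted p = 0.000158).

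Of the acute-phase proteins, 16 of 18 tested were lower and 2 higher in acute LSECs (median -4.34), 10 of 19 lower and 2 higher in fibrosis (-1.47), 2 lower and 3 higher of 19 in cirrhosis (-0.18), and 12 lower and 5 higher of 19 in the TAA comparison (-1.51). Some of these genes, such as Hp, Cp, C3 and Cfb, are also on the list of other plasma proteins. Lcn2, an iron-sequestering protein that many cell types release, was higher than in healthy cells at every CCl4 stage without overlap (log2 fold change 2.45, 2.996 and 2.19). Hp, the haemoglobin-binding haptoglobin, had -5.65, -2.70 and -0.50, of which the last did not pass. Cp, the copper oxidase ceruloplasmin, was lower in acute (-2.19) and higher in cirrhotic LSECs (1.99).

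Hepatocyte genes whose products are not secreted also differed between the groups, and their part in the results was not tested. All 40 enzymes and transporters were lower in acute LSECs (median log2 fold change -6.90), 34 of 40 in fibrosis (-4.59) and 16 of 40 in cirrhosis (-0.97), and 15 of 40 in the group labelled TAA control (-0.43), with 0 higher in each. The medians of the 10 members in these comparisons were -4.77, -1.999, -0.18 and -2.14, so the enzymes and transporters had the lower median in each CCl4 group and the members in the TAA comparison. Their summed level was 818 to 15502 CPM in healthy, 57.6 to 125 CPM in acute, 184 to 563 CPM in fibrosis and 1096 to 3234 CPM in cirrhosis libraries. Pck1, of gluconeogenesis, had log2 fold changes of -8.83, -7.65 and -0.73, of which the last did not pass. The same sums for the 10 members were 1281 to 28552 CPM in healthy, 147 to 945 CPM in acute, 1325 to 5319 CPM in fibrosis and 3130 to 15826 CPM in cirrhosis libraries. In healthy replicate 5, which was lowest for every member, the enzymes and transporters were also lowest at 818 CPM and the endothelial markers highest at 50224 CPM.

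**Figure D4:**
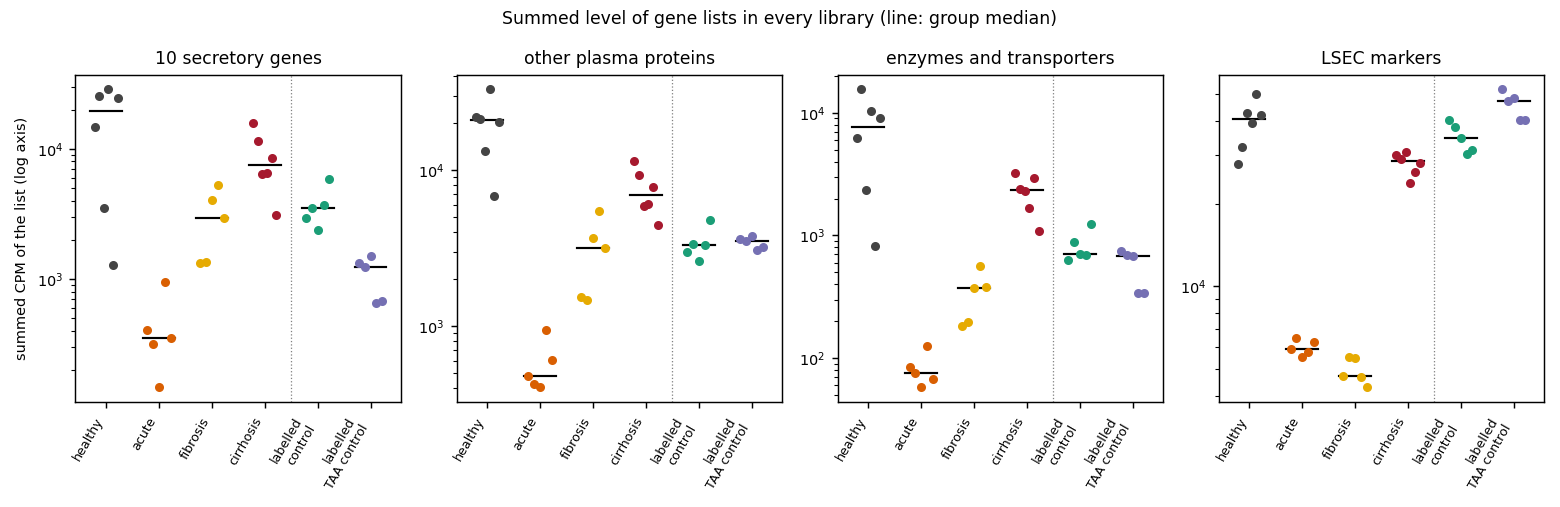
Summed level (CPM, log axis) of the 10 secretory genes, the other plasma proteins, the hepatocyte enzymes and transporters and the LSEC markers in every library, by group, with the group median as a line. The hepatocyte sums are lowest in the acute group, and the LSEC marker sums of acute and fibrosis libraries (4290 to 6488 CPM) lie below those of all other libraries.

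Of the list of 18 hepatocyte transcription factors, which also holds the receptor gene Tfr2, 16 of 17 tested were lower and 1 higher in acute LSECs (median -5.38), 12 of 17 lower and 1 higher in fibrosis (-2.66), 4 of 18 lower in cirrhosis (-1.06) and 11 of 17 lower and 1 higher in the TAA comparison (-1.12). Hnf4a, a nuclear receptor on which many plasma protein genes depend, had log2 fold changes of -7.83, -5.46 and -1.68 and was called at each stage. Cebpa had -4.55, -3.44 and -1.83. The gene that was higher was Nr5a2, a nuclear receptor of bile acid metabolism (1.46 in acute and 0.99 in fibrosis).

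Genes for assembly and clearance of lipoproteins and for receptors and partners of the secreted proteins were mixed. Of 16 lipoprotein genes, 12 were lower and 2 higher in acute (median -1.60), 7 lower and 3 higher in fibrosis (-1.13) and 4 lower and 2 higher in cirrhosis (-0.15), and of 15 tested in the TAA comparison 5 were lower and 1 higher (-0.51). Mttp, which loads lipid onto Apob, was lower in acute (-5.34, limma-voom with Benjamini-Hochberg adjusted p = 0.00298) and had -1.60 (adjusted p = 0.173) in fibrosis and 0.15 (adjusted p = 0.881) in cirrhosis. In the TAA comparison Mttp was lower (-2.46), as was Apob. Lpl, which hydrolyses lipoprotein triglyceride, was higher at each CCl4 stage (3.31, 1.66 and 4.16).

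Of the receptors and partners, 10 of 18 were lower and 4 higher in acute (median -1.49), 7 of 19 lower and 5 higher in fibrosis (-0.84), 2 of 20 lower and 3 higher in cirrhosis (0.16), and 9 of 18 lower and 1 higher in the TAA comparison (-0.77). This list shares Rbp4, F2 and Plg with the other plasma proteins and Tfr2 with the transcription factors, so its counts are not separate from theirs. Tfrc, the receptor that takes up transferrin, was higher at every CCl4 stage (log2 fold change 4.37, 4.03 and 0.80), opposite to the falls of Tf in acute and fibrosis. Fcgrt, whose product protects albumin from degradation in endothelial cells, was lower at each stage (-3.62, -3.71 and -1.72) without overlap.

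Markers of other liver cells also differed between the groups, and their part in the results was not tested. Of the LSEC markers, 17 of 19 were lower in acute (median -3.12), 18 of 19 in fibrosis (-3.30) and 7 of 19 in cirrhosis (-0.03), where 1 was higher, and 7 of 19 were higher in the group labelled TAA control (0.51). The mean log2 TMM factor was higher by 0.32 in cirrhosis than in healthy libraries, about the amount by which scaling by library size alone would raise these log2 fold changes. The cirrhosis medians of -0.03 (LSEC markers), -0.15 (lipoprotein genes) and -0.18 (acute-phase proteins, and the 10 members) are smaller in size than this. Their sign may therefore depend on the scaling. Cholangiocyte markers were lower for 6 of 9 in acute and in fibrosis, where 2 were higher, 5 of 11 were higher and 2 lower in cirrhosis, and 7 of 8 were lower in the TAA comparison. Kupffer cell and macrophage markers were lower for 13 of 14 in acute and 12 of 14 in fibrosis, and 3 of 15 were higher in cirrhosis and 5 of 14 in the TAA comparison. Hepatic stellate cell markers were lower for 10 of 13 and higher for 1 in acute, lower for 7 and higher for 4 of 14 in fibrosis, higher for 10 of 15 in cirrhosis and lower for 12 of 15 in the TAA comparison. Lymphocyte and neutrophil markers were lower for 10 of 11 in acute and 8 of 12 in fibrosis, 5 higher and 5 lower of 16 in cirrhosis, and 8 of 9 higher in the TAA comparison, and of 3 red blood cell genes tested 3, 1 and 2 were lower at the CCl4 stages and 0 differed in the TAA comparison. In healthy libraries the sum of the Kupffer cell and macrophage markers was 738 to 4886 CPM and that of the cholangiocyte markers 3002 to 15503 CPM. In acute libraries these sums were 163 to 330 CPM and 113 to 186 CPM. The cholangiocyte sum was largely that of Aqp1, with a mean of 3191 CPM over the 22 CCl4 libraries. The next on that list were Slc4a2 (135 CPM) and Tspan8 (4.76 CPM). The fall of this sum in acute libraries is therefore mainly that of Aqp1 (log2 fold change -7.64). Which cells this Aqp1 mRNA came from was not tested, so the sum is not a measure of cholangiocytes. The sum of the stellate cell markers was 710 to 1520 CPM in healthy (median 944 CPM) and 1327 to 2140 CPM in acute libraries (median 1676 CPM), with overlapping ranges and the higher median in acute, although 10 of its genes were lower. The highest means on that list over the 22 CCl4 libraries were those of Reln (790 CPM), Col3a1 (319 CPM) and Ecm1 (260 CPM). Such a sum follows its most abundant genes, and which of them gave the higher acute median was not tested.

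Of the 10 genes most like the members in pattern, 4 were on the list of other plasma proteins over the CCl4 libraries, and 8 were on it after subtraction of group means. Among 15496 genes compared over the 22 CCl4 libraries, the highest Pearson correlations with the mean standardised level of the members were those of LOC500712 (0.996), Serpina3c (0.994), Azgp1 (0.993), C3 (0.992) and F10 (0.991), followed by Serpina10, Spp2, Rarres2, Slc27a2 and Hp (0.991). With group means subtracted, over all 32 libraries, the first were Vtn (0.993), the adhesion protein vitronectin, and Plg (0.984), the precursor of the fibrin-degrading plasmin, followed by Cfi, Proc, Fetub, Serpina3c, LOC500712, Ambp, Pon1 and Apoh (0.981). A correlation above 0.9 was reached by 281 genes over the CCl4 libraries and by 156 genes after subtraction of group means. These libraries fall into groups and share depth and scaling, so the values are descriptions.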

How the data were processed

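According to the study's methods, stranded poly(A) libraries were aligned with STAR to Rnor_6.0 and quantified with RSEM, and the labels also list FastQC, Trim Galore and limma. The authors deposited 1 file of RSEM expected counts per gene and library, not normalised. These expected counts were rounded to whole numbers here. Reads shared between near-identical genes are divided by RSEM, which makes the counts of members of gene families such as the serpins estimates. Totals ranged from 25646531 to 46464289 counts per library. The precision of a group value is that of 5 or 6 libraries, which the study describes as independent isolations of LSECs. On that description, p-values measure the spread between isolations. Whether labelled TAA control replicates 14 and 15 (chi-square per degree of freedom 2.96) were separate isolations was not settled. The tests of the TAA comparison count them separately.

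For each pair of groups, genes were filtered with filterByExpr, scaled with TMM and tested with limma-voom (R 4.3.3, limma 3.58.1, edgeR 4.0.16), two-sided. A gene was called at an unadjusted p under 0.05 and a fold-change above 1.5, the thresholds of the study, and Benjamini-Hochberg p-values were taken over all genes tested. CPM were computed with TMM factors within each experiment, and log2 CPM with a pseudocount of 0.5. Ranges, ratios and correlations are descriptions without a test. The members, the gene lists and the alternatives were chosen with earlier results of these data known. Named were all members and, of each list, genes among the 3 with the highest mean level and the up to 3 called genes with the largest change per comparison with healthy cells. Some genes are not reported here by name. Genes most like the members were the 10 highest by each measure. Listed symbols without a match, such as Kng2, Serpina3n, Itgam and Pecam1, were left out, and Cfb and Hba-a2 have several identifiers, so counts are by identifier.

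Alternatives were edgeR's quasi-likelihood test and DESeq2 (1.42.0), other scalings, filters and thresholds, library quality weights, a replicate block and leaving out each library. Simulated counts for the acute comparison held 14413 genes, of which 200 were changed by a fold of 4. Of the changed genes limma-voom recovered 100%, and 4.31% of its calls were unchanged genes. In the data, 38.3% of genes were called lower and 35.8% higher in this comparison. Recovery with such large shares, or for the members in particular, was not tested. Promoters came from RefSeq (GRCr8). Figures were drawn with matplotlib 3.10.9.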

Additional observations from a re-analysis of the deposited data

Results flagged for a closer look

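None of the members' values stood apart within a group by Dixon's test. Of 72 groups of values examined, 2 held a library far from the rest, both in total counts and not in a member's level. These were acute replicate 4 with 36916992 counts and the library labelled control replicate 5 with 32631606 counts. Chance alone marks about 1 in 20 groups, which is 3.6 of 72. Acute replicate 4 was the highest acute library for all 10 members, and labelled control replicate 5 the highest of its group for 9, on the CPM scale.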

How the results depend on the processing

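Of 1720 fold changes recomputed for the members under alternatives, 1647 kept their direction and side of the threshold, 22 lost their call, 30 gained one and 21 changed sign. All 10 members stayed called in acute against healthy and in both comparisons of later stages with acute in every fit that left out 1 library. Members called in fibrosis against healthy were 8 with edgeR, 9 with DESeq2 and 4 to 8 when 1 library was left out. In cirrhosis against healthy they were 5 with quality weights and 2 to 4 when 1 library was left out. In cirrhosis against fibrosis they were 7 to 10, and in the TAA comparison 9 to 10. The sign changes were all in cirrhosis against healthy, none called, and the cause was not tested. With edgeR the values were -0.43 (Alb), -0.20 (Apob), -0.17 (Fga), -0.45 (Fgb) and -0.16 (Fgg), with DESeq2 -0.45, -0.22, -0.19, -0.46 and -0.17. With quality weights they were -0.41 (Alb), -0.13 (Fga), -0.51 (Fgb) and -0.17 (Fgg). With 1 library left out they ranged from -0.46 to 0.60 (Alb), -0.10 to 1.02 (Fga), -0.41 to 0.71 (Fgb) and -0.14 to 0.91 (Fgg). Over all genes, calls in fibrosis against acute were 2189, but 4968 without a fold threshold and 3358 without the low-count filter, and in the TAA comparison 4228, but 8142 without a fold threshold. The mean log2 TMM factor lay above that of healthy libraries by 0.45 (acute), 0.49 (fibrosis) or 0.32 (cirrhosis). Scaling by library size alone would move log2 fold changes against healthy by about these amounts, toward higher values. Libraries that share a replicate number between groups had correlations of deviations of -0.24 to 0.29. Differently numbered pairs were not compared, so whether these numbers pair libraries was not settled. With the replicate block, 10 members were called in acute and 3 in cirrhosis against healthy and 10 in cirrhosis against acute, and genes called were 10997, 7976 and 10068, against 10911, 8058 and 10132 without the block in the same libraries. Depth did not limit detection, the lowest count of a member being 14.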
